A study of Mus musculus with 6 samples.

Results

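A set of 10 genes known to mark transitional alveolar epithelium was followed across lung cells of mice with silica-induced lung injury: the keratin genes Krt8, Krt18, Krt19 and Krt7, the tight junction gene Cldn4, the 14-3-3 gene Sfn, the galectin gene Lgals3, the growth factor genes Areg and Hbegf, and the cornified envelope gene Sprr1a. They were taken by name from the array, and all 10 were well above background on all 6 arrays, so none was lost among the 16422 genes tested. The array had 1 probe for each of them except Cldn4, which had 2 probes.

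The study compared CD45-negative lung cells of WT mice (C57BL/6J) and Ccr2KO mice (B6.129S4-Ccr2tm1Ifc/J), untreated (day 0) or at day 28 or day 40 after aspiration of silica. Mice of both genotypes were 7-9 weeks old when the experiments began. Lungs were perfused and digested with enzymes, a Percoll gradient took out erythrocytes and silica, and CD45-negative cells were separated by magnetic sorting. In each of the 6 groups RNA of 3 biological replicates was pooled into 1 sample and read on 1 one-colour array, so the spread between animals is not known, and there were no replicates. The knockout is in every cell of the body, and the CD45-negative fraction holds epithelium, endothelium, fibroblasts and mesothelium together. In such a mixture fewer cells of a type and less RNA per cell cannot be told apart.

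Type 2 alveolar cells rebuild the gas-exchange surface after injury by turning into flat type 1 cells. On the way they pass through a transitional state known for the simple epithelial keratins, Cldn4, Sfn and Lgals3, and in lung fibrosis cells in this state are known to persist. KRT8 pairs with KRT18 to form the intermediate filaments of simple epithelia, and KRT7 and KRT19 join such filaments. CLDN4 seals tight junctions, and AREG and HBEGF are ligands of the EGF receptor that are shed from the cell surface.

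Values for a genotype series are always given in the order untreated, day 28, day 40. Levels are log2 signal minus the 75th percentile of the array, and a difference of 1 is a 2-fold change. The same probe spotted 10 times on an array varied by 0.054 to 0.068 (SD of log2 signal, median over 399 probes). This SD leaves out the spread between arrays and between RNA pools, so a larger step between arrays can still be noise. Differences between conditions were tested with limma in an additive model of day and genotype, so its p-values measure what that model left unexplained on 2 residual degrees of freedom, and not the spread between mice. A gene passed at an adjusted p (Benjamini-Hochberg over all 16422 genes) below 0.05. Ccr2 itself read 0.09, 1.38 and -1.70 in the WT series and -5.07, -1.51 and -3.64 in the Ccr2KO series. The position of its probe against the deletion is unknown here, so these values check the labels only in part. Both untreated arrays and the Ccr2KO day 28 array lay in row 1 of the slide and the other 3 in row 2, so row and silica overlap in part.

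After silica (both days averaged over both genotypes, less the untreated arrays) Cldn4 rose 2.27-fold, Krt7 fell by 0.82 and Krt19 fell by 0.59 on the log2 scale, and the other 7 genes did not pass the test. That is 1 of 10 higher and 2 of 10 lower, where 19.8% of all genes tested were called, 10.5% higher and 9.33% lower (37.5% at unadjusted p below 0.05). The keratins that define the transitional state, Krt8 and Krt18, lay at -0.24 ± 0.11 and -0.30 ± 0.09 (log2 difference ± SE), below 0 rather than above it. The median of the 10 genes was -0.27, against -0.01 for all genes tested. The 10 genes did not rise together in this cell fraction, and each is described on its own.

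**Figure D1:**
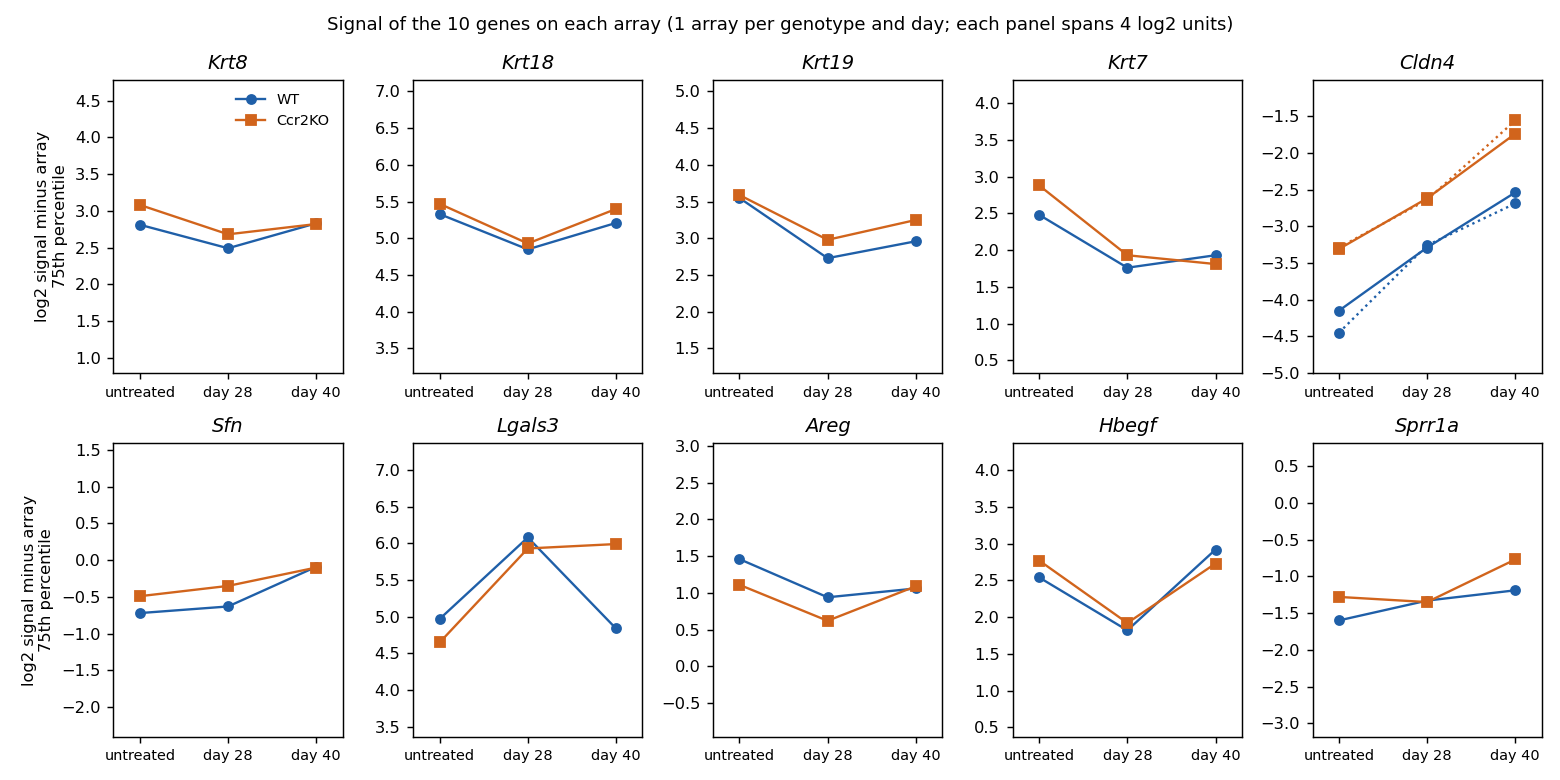
Level of each of the 10 genes (y axis, log2 signal minus the 75th percentile of the array) in untreated, day 28 and day 40 lung cells (x axis), 1 point for each array, WT as circles and Ccr2KO as squares, with the second Cldn4 probe dotted. Cldn4 was higher on each of the 4 silica arrays than on both untreated arrays, though WT day 28 (-3.29) lay barely above Ccr2KO untreated (-3.31), and Krt7 and Krt19 were lower on each, while Krt8, Krt18 and Hbegf were lowest at day 28.

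Krt8, the type II keratin by which the transitional state is most often named, read 2.81 in WT untreated, 2.49 at day 28 and 2.83 at day 40, and 3.08, 2.68 and 2.82 in Ccr2KO cells. The untreated and silica groups overlapped, and the highest level of all was on an untreated array. Krt18, its type I partner, read 5.33, 4.85 and 5.21 in the WT series and 5.47, 4.93 and 5.40 in the Ccr2KO series. Both genes were lowest at day 28 in each genotype, and at day 40 they lay within 0.27 of their own untreated array. Neither difference passed (limma, adjusted p = 0.19 for Krt8 and 0.0947 for Krt18). Krt18 passed only with quantile normalization (-0.43 ± 0.09, limma adjusted p = 0.0437).

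Krt19, a type I keratin without a tail domain, read 3.55, 2.73 and 2.96 in the WT series and 3.59, 2.98 and 3.25 in the Ccr2KO series. All 4 silica arrays lay below both untreated arrays. The difference was -0.59 ± 0.11 (limma, adjusted p = 0.0318, lower on 4 of 4 silica arrays), but it did not pass when any one of the 6 arrays was left out, with values between -0.71 and -0.48 and adjusted p between 0.0703 and 0.138. Krt7, a type II keratin of simple and glandular epithelia, read 2.48, 1.76 and 1.93 in the WT series and 2.88, 1.93 and 1.81 in the Ccr2KO series. The groups did not overlap, and the difference was -0.82 ± 0.14 (limma, adjusted p = 0.029, lower on 4 of 4 silica arrays). It did not pass without WT day 28 (adjusted p = 0.137), Ccr2KO untreated (-0.63, adjusted p = 0.107), Ccr2KO day 28 (adjusted p = 0.129) or Ccr2KO day 40 (adjusted p = 0.0687). Neither keratin passed without the filter on dim probes (limma adjusted p = 0.0606 for Krt19 and 0.0566 for Krt7). Of all genes tested, 24% had 4 silica arrays below both untreated ones, as did 3 of the 10 (Krt19, Krt7 and Areg), and 21.1% had them above, as did 1 of the 10 (Cldn4).

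Simple keratins are carried by mesothelium and by type 1 and type 2 cells as well as by transitional cells. Of 7 mesothelial markers 5 fell and 2 did not pass after silica, and their mean level was 2.01 and 2.03 on the untreated arrays and 1.08 on both day 28 arrays and 0.95 in Ccr2KO cells at day 40, with WT day 40 close to the day 28 level. Of 10 measured type 1 markers 7 fell and 3 did not pass, with a mean of 3.99 and 4.44 untreated and 2.60 to 3.18 after silica. Of 11 type 2 markers 8 fell and 3 did not pass, with a mean of 6.23 and 6.10 untreated and 5.36 to 5.75 after silica. The mesothelial and alveolar list means moved in the same direction as Krt7 and Krt19. The type 1 marker Pdpn (0.35 ± 0.11) and the type 2 markers Sftpc (0.11 ± 0.10) and Sftpd (0.20 ± 0.11) lay above 0 and did not pass. Every other marker of these lists lay below 0. In the airway lists no club or ciliated marker was called lower, and the club marker Scgb3a1 was called higher. Silica minus untreated had a median of -0.16 over the club list and -0.12 over the ciliated list. The part of the mesothelial, alveolar or airway cells in the keratin differences was not tested. Basal cell markers, which mark another keratin programme, did not move together. Krt5, Krt14, Krt17 and Ngfr rose. Krt15 (-0.36 ± 0.34) and Trp63 (-0.29 ± 0.11), the brightest of the list, lay below 0 and did not pass. Trp63 read 3.16 on both untreated arrays and 2.80 to 3.01 after silica. The list mean was -1.91 and -2.26 untreated and -0.96 to 0.47 after silica.

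**Figure D2:**
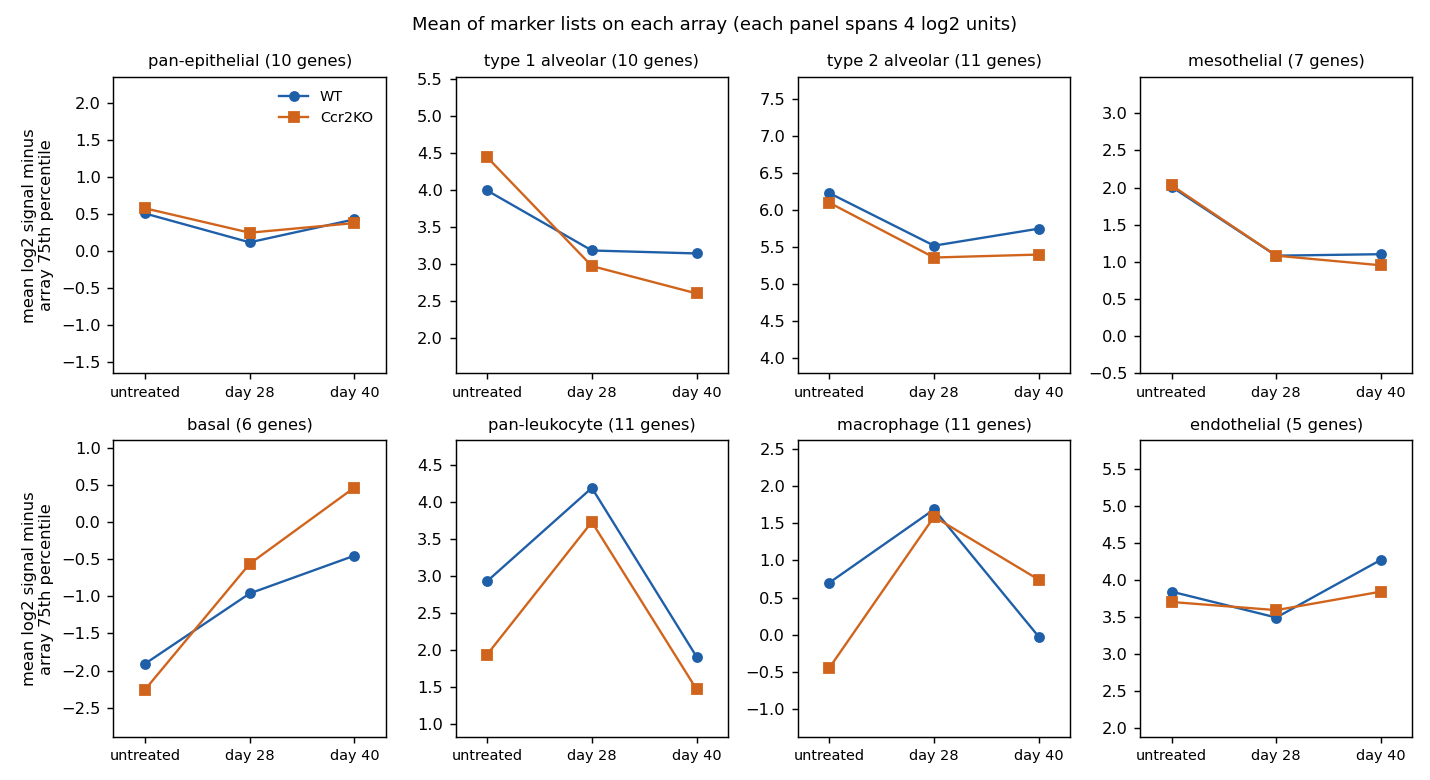
Mean level of 8 marker lists (y axis, log2 signal minus the 75th percentile of the array) in untreated, day 28 and day 40 lung cells (x axis), 1 point for each array, WT as circles and Ccr2KO as squares. Type 1, type 2 and mesothelial means were lower on all silica arrays than on untreated ones, the basal mean was higher, and the pan-leukocyte and macrophage means peaked at day 28.

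The keratin anchoring genes were read beside the keratins. Of 10 desmosome, linker and further simple keratin genes 5 fell, 2 rose and 3 did not pass, with a median of -0.72 against -0.01 for all genes tested. Periplakin Ppl, which links keratin to the cell edge, fell by 1.63 ± 0.11 (limma, adjusted p = 0.00764). The simple keratin gene Krt23 fell by 1.49 ± 0.10 (limma, adjusted p = 0.0079). The desmocollin gene Dsc2 rose 1.9-fold and Krt20, a keratin of gut and urinary epithelium, 2.56-fold. Neither was well above background on an untreated array, and each was so on some silica arrays only (2 of 4 for Dsc2 and 3 of 4 for Krt20). Both thus entered the test through the group where they are high. Such a fold sets the mean of the silica arrays against the untreated arrays. An untreated array counted at the lowest signal that was well above background on it wherever its own signal was lower. Dim silica arrays kept their own signal, so the fold is an estimate and not a lower bound.

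As a check on the amount of epithelium, the arrays were also centred on 10 pan-epithelial genes, which were not among the listed genes. Their mean was 0.51 and 0.58 on the untreated arrays and 0.12 to 0.43 after silica. Of the 10, 3 fell (Cdh1, Prss8 and Grhl2), while Epcam was at -0.16 ± 0.09 and did not pass (limma, adjusted p = 0.295). Esrp2, Rab25 and Ap1m2 also lay below 0, and Esrp1 (0.29 ± 0.10), St14 (0.30 ± 0.15) and Spint1 (0.01 ± 0.09) above it, and none of these passed. The 10 did not move together, so their mean is only a rough measure of the amount of epithelium. This scaling put the median of all genes at 0.24 in place of -0.01, and every value moved up by about that amount. On this scale Krt8 lay at 0.01 ± 0.13 and Krt18 at -0.05 ± 0.14, so both lay within 1 SE of 0. Krt7 still fell, by 0.57 ± 0.15 (limma, adjusted p = 0.0453), while Krt19 at -0.34 ± 0.14 did not pass (adjusted p = 0.134). Cldn4 rose by 1.43 ± 0.14 (limma, adjusted p = 0.00404) and Sfn by 0.56 ± 0.13 (adjusted p = 0.0339).

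**Figure D3:**
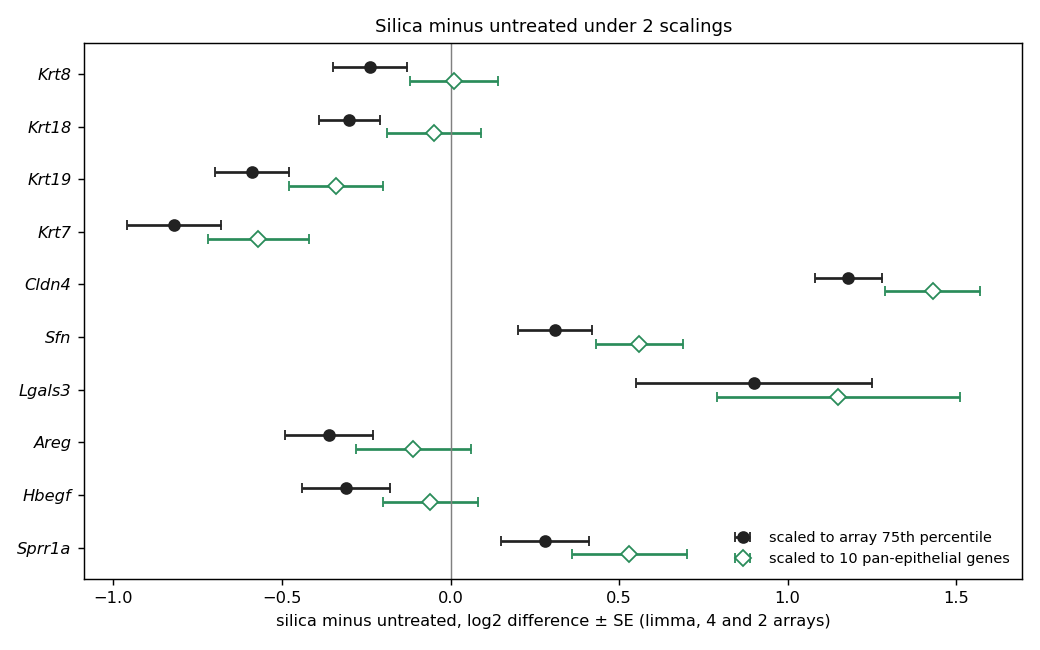
Silica minus untreated for the 10 genes (x axis, log2 difference, with bars of 1 SE from limma over 4 silica and 2 untreated arrays), under the scaling to the 75th percentile of the array (filled circles) and under the scaling to 10 pan-epithelial genes (open diamonds). Cldn4 lay above 0 and Krt7 below it under both scalings, and Krt8 moved from -0.24 to 0.01.

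Cldn4 was the one gene of the 10 that rose. It read -4.15, -3.29 and -2.54 in the WT series and -3.31, -2.62 and -1.74 in the Ccr2KO series, and its second probe -4.45, -3.26 and -2.69 in the WT series and -3.29, -2.64 and -1.56 in the Ccr2KO series. In each genotype the level was lowest untreated and highest at day 40, and both probes gave the same order of the 6 arrays apart from Ccr2KO day 28 and WT day 40, which lay close together under both. WT day 28 lay above Ccr2KO untreated by less than the SD of repeated spots with either probe. Each silica array lay above the untreated array of its own genotype by 0.68 or more with the first probe and 0.65 or more with the second. The signal was dim, at 66.4 units in WT untreated cells and 238 units in Ccr2KO cells at day 40. With normexp background correction silica minus untreated was smaller, at 0.87 ± 0.10 (limma, adjusted p = 0.00303). With the intensity trend its error was larger, at 1.18 ± 0.17 (limma, adjusted p = 0.00599). Under the main processing silica minus untreated was 1.18 ± 0.10 (limma, adjusted p = 0.00905, higher on 4 of 4 silica arrays) and 1.33 by the second probe. It did not pass without WT day 28 (1.14, adjusted p = 0.0853) or without Ccr2KO day 28 (1.22, adjusted p = 0.0821), fits in which 0 of all genes were called. Blocked on slide row it was 1.06 ± 0.17 and did not pass (limma, adjusted p = 0.259), and within row 1 the Ccr2KO day 28 array lay 0.68 above the untreated one.

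In that blocked fit Krt7 was at -0.80 ± 0.30 (limma, adjusted p = 0.382) and Krt19 at -0.53 ± 0.21 (adjusted p = 0.397), and within row 1 the Ccr2KO differences of day 28 from untreated were -0.95 and -0.61. No gene of the whole array passed in the blocked fit, which leaves 1 residual degree of freedom.

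The promoters of 4 genes are printed here, because Cldn4 rose, Krt7 fell, Krt8 names the state and Sprr1a shares a sequence feature with Cldn4. They are RefSeq sequences of build GRCm38.p6, from 250 bases before to 50 bases after the start of the gene, 5′ to 3′ on the strand of the gene. Capitals mark exact matches on either strand to AP-1 (TGANTCA), TEAD (GGAATG), grainyhead (AACNNGTT), the SP1 GC box (GGGCGG) and the TATA box (TATAAA). Overlapping matches run together.
Cldn4, chr5:134946885-134947184, minus strand: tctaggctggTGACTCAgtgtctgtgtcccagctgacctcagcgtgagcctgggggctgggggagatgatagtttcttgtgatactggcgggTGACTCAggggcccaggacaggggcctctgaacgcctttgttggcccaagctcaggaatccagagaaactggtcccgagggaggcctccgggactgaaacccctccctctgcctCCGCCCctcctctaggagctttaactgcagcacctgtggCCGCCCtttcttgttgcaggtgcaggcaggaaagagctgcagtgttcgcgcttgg
Sprr1a, chr3:92485832-92486131, minus strand: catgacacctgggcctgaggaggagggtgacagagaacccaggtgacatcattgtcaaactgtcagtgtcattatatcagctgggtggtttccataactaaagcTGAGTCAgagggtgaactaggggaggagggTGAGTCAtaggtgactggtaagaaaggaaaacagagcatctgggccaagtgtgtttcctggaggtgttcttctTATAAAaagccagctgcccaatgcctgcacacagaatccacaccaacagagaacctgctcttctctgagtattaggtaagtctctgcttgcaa
Krt7, chr15:101412153-101412452, plus strand: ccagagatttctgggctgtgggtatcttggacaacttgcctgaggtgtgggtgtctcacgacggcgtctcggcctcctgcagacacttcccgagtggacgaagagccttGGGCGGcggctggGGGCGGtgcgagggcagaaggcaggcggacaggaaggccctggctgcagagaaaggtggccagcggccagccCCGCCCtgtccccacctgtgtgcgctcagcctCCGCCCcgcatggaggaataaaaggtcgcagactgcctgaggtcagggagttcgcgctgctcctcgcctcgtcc
Krt8, chr15:102004293-102004592, minus strand: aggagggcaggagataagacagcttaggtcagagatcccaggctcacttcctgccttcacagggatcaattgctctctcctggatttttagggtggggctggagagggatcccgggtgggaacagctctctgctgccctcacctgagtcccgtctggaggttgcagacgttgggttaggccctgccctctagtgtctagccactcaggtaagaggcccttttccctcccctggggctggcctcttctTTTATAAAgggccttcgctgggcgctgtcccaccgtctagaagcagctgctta
The Cldn4 promoter held 2 AP-1 matches, both with the letters TGACTCA, starting 240 and 158 bases before the start, and 2 SP1 matches. The Sprr1a promoter held 2 AP-1 matches with the letters TGAGTCA, 146 and 116 bases before the start, and 1 TATA box. An AP-1 match was present in 7.81% of 32851 promoters of this length, an SP1 match in 35.7% and a TATA box in 13.6%. Krt7 held 4 SP1 matches, and Krt8 held 2 overlapping TATA matches in its capital run. These began 3 and 1 bases before the start and so ran across it, whereas the Sprr1a match began 43 bases before. The promoters of Krt19 and Hbegf were not read. Of the 8 listed genes whose promoters were read, Sfn alone held a grainyhead match (AACTGGTT), a motif found in 4.2% of promoters. None of the 8 held TEAD, found in 14.7%. A match is a string of letters, and binding was not measured here.

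Other claudins moved in both directions. Of 14 measured, 1 rose, 3 fell and 10 did not pass, with a median of -0.28. Cldn2, a claudin that makes tight junctions leaky to cations, read -6.18, -1.88 and -1.46 in the WT series and -4.95, -1.31 and -1.17 in the Ccr2KO series. It rose (limma, adjusted p = 0.00761), by 4.11 ± 0.22 as measured and by at least 3.81 with the WT untreated array, where it was not well above background, held at the lowest such signal (-5.58). Its dimmer second probe gave 1.75. The alveolar claudin gene Cldn18 fell by 1.08 ± 0.18 (limma, adjusted p = 0.0261), Cldn15 by 1.03 ± 0.13 (adjusted p = 0.0164) and the endothelial Cldn5 by 0.79 ± 0.16 (adjusted p = 0.041). Cldn3 and Cldn7, the general epithelial claudins, were at -0.42 ± 0.10 and -0.23 ± 0.09 and did not pass. Cldn4 and Cldn2 were thus higher after silica while the alveolar claudin was lower, and the difference between claudins was not tested.

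Sfn encodes stratifin (14-3-3 sigma), an epithelial 14-3-3 protein and a known p53 target. It read -0.72, -0.63 and -0.09 in the WT series and -0.49, -0.35 and -0.10 in the Ccr2KO series. All 4 silica arrays lay above the untreated array of their own genotype, by 0.09 to 0.62, but WT day 28 lay below Ccr2KO untreated. The difference of 0.31 ± 0.11 did not pass (limma, adjusted p = 0.13). None of the other 6 members of the 14-3-3 family passed, and their values lay between -0.01 (Ywhaq) and 0.30 (Ywhag, 0.30 ± 0.14). Of 13 p53 target genes none passed in either direction (median 0.26). Phlda3, an inhibitor of AKT, was at 0.64 ± 0.41. Eda2r, a TNF receptor relative, was at 1.27 ± 0.90 as measured, but WT untreated (-7.59) and WT day 40 were not well above background. With the WT untreated array held at its lowest signal well above background (-5.58) it was at 0.27. Without the Ccr2KO untreated array 5 of the 13 were called higher, and without the WT untreated array 1 was called lower.

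Lgals3 encodes galectin-3, a sugar-binding protein of transitional cells and of macrophages. It read 4.97, 6.08 and 4.84 in the WT series and 4.65, 5.93 and 5.99 in the Ccr2KO series. The level was high at day 28 in both genotypes and at day 40 in Ccr2KO cells, and WT day 40 lay among the untreated arrays. Silica minus untreated was 0.90 ± 0.35 and did not pass (limma, adjusted p = 0.148). Without the WT day 40 array it passed at 1.25 ± 0.14 (adjusted p = 0.0262), while it was 0.49 without Ccr2KO untreated, 0.55 without Ccr2KO day 40 and 0.47 blocked on slide row, none of which passed. At day 40 Ccr2KO cells lay 1.15 above WT cells, against -0.32 untreated and -0.15 at day 28, and the difference of the silica responses of 0.82 ± 0.80 did not pass (limma, adjusted p = 1.0). Leaving out single arrays moved that difference between 0.20 (without WT day 40) and 1.44 (without WT day 28).

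Macrophage markers were present in these CD45-negative cells. The mean of 11 measured macrophage markers was 0.70, 1.69 and -0.03 in the WT series and -0.45, 1.59 and 0.74 in the Ccr2KO series, and 10 of the 11 were above background on every array. Like Lgals3 this mean was higher at day 28 than untreated in both genotypes, but in Ccr2KO cells it was lower at day 40 than at day 28 while Lgals3 was level. After silica 4 rose and 7 did not pass. At day 40, 7 of the 11 were higher in Ccr2KO than in WT cells by value, 3 were lower and 1 lay within 0.1. The alveolar macrophage genes Marco (-2.60 in WT, -0.11 in Ccr2KO cells) and Chil3 (1.42 and 3.82) were among the 7, and Adgre1 (-1.25 and -1.52), Csf1r (3.24 and 2.84) and Cd14 (4.24 and 4.12) were the 3. The pan-leukocyte mean at day 40 was 1.91 in WT and 1.47 in Ccr2KO cells, lower in the knockout. Ptprc, which encodes CD45, read 1.54, 2.62 and 0.29 in the WT series and 0.45, 2.14 and -0.61 in the Ccr2KO series. The part of these cells in the Lgals3 level was not tested.

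Of 7 other galectin genes measured, 2 rose, 2 fell and 3 did not pass (median 0.36). Lgals1, a galectin of mesenchymal cells, rose by 1.39 ± 0.12 (limma, adjusted p = 0.00936), and Lgals3bp, which encodes a galectin-3 binding glycoprotein, by 0.97 ± 0.13 (adjusted p = 0.0193). Lgals2 fell by 1.72 ± 0.14 (limma, adjusted p = 0.00885) and Lgals4 by 0.62 ± 0.11 (adjusted p = 0.0305). Lgals1 and Lgals3bp were above both untreated levels on each silica array.

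Areg encodes amphiregulin, an EGF receptor ligand of epithelial repair. It read 1.46, 0.94 and 1.06 in the WT series and 1.11, 0.62 and 1.09 in the Ccr2KO series. The silica arrays lay below both untreated ones, but Ccr2KO day 40 did so by only 0.02, which is less than the SD of repeated spots. The difference of -0.36 ± 0.13 did not pass (limma, adjusted p = 0.123). Hbegf, which encodes heparin-binding EGF-like growth factor, read 2.54, 1.82 and 2.92 in the WT series and 2.77, 1.92 and 2.73 in the Ccr2KO series. It was low at day 28 in both genotypes and back within 0.38 of untreated at day 40, and silica minus untreated was -0.31 ± 0.13 (limma, adjusted p = 0.169).

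Of 8 other ligands of the same receptor family, Ereg and Nrg1 rose, Nrg2 and Btc fell and 4 did not pass (median -0.09). Ereg, which encodes epiregulin, read -1.91, 1.16 and 1.78 in the WT series and -1.16, 1.44 and 2.55 in the Ccr2KO series. It rose 9.6-fold (3.26 ± 0.15, limma, adjusted p = 0.00677), with every silica array above both untreated ones. Neuregulin Nrg1 rose by 0.87 ± 0.13 (limma, adjusted p = 0.0217), Nrg2 fell by 1.82 ± 0.25 (adjusted p = 0.0186) and betacellulin Btc by 0.60 ± 0.12 (adjusted p = 0.0385). None of 7 measured receptor and sheddase genes passed: Egfr was at 0.29 ± 0.18, Erbb2 at 0.02 ± 0.12 and the sheddase gene Adam17 at 0.22 ± 0.11. The largest by value were Erbb3 (-0.50 ± 0.40) and Adam10 (0.34 ± 0.10).

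**Figure D4:**
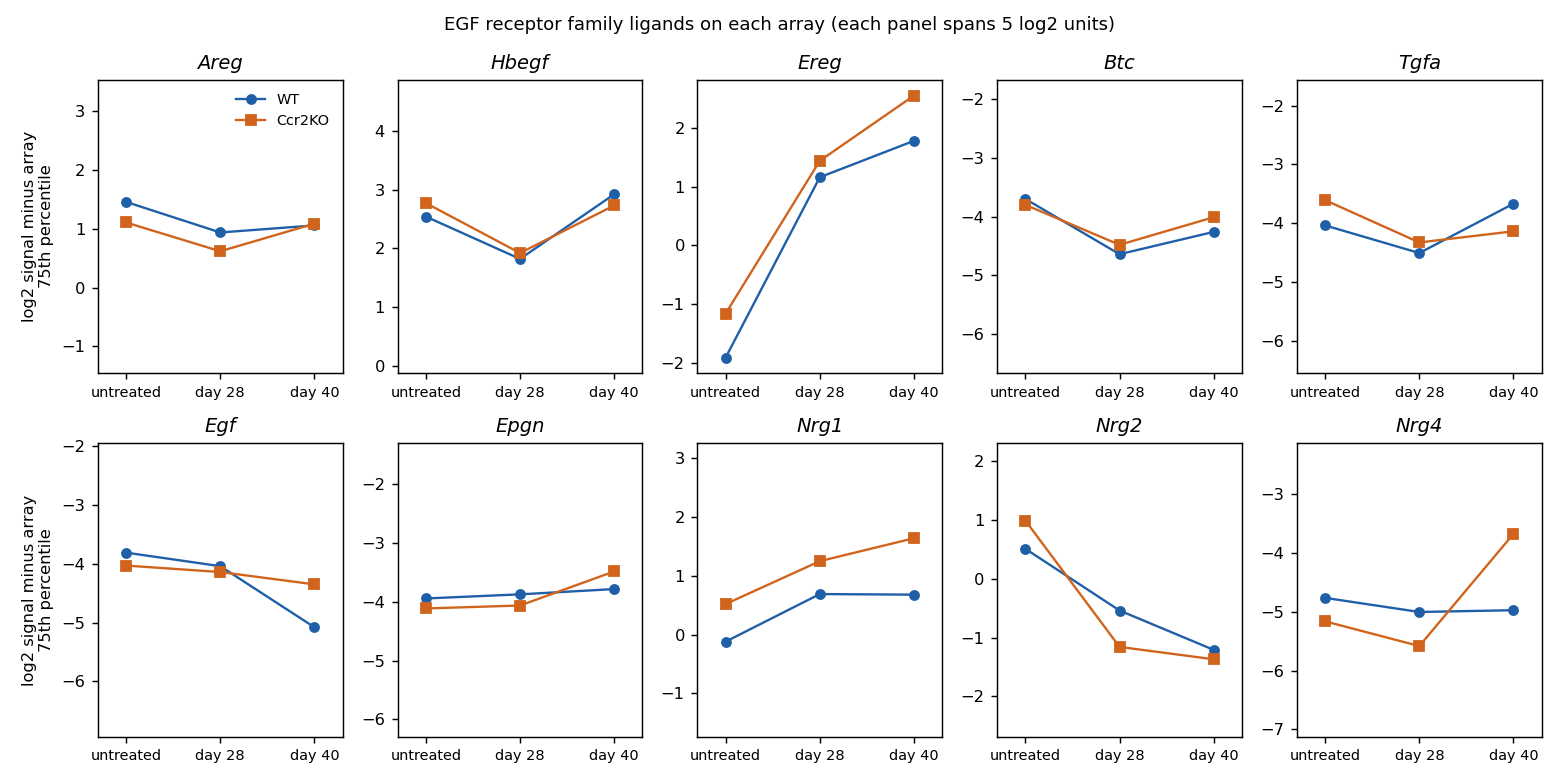
Level of 10 ligand genes of the EGF receptor family (y axis, log2 signal minus the 75th percentile of the array) in untreated, day 28 and day 40 lung cells (x axis), 1 point for each array, WT as circles and Ccr2KO as squares. Ereg was higher on every silica array than on both untreated arrays and Nrg2 lower, while Areg and Hbegf dipped at day 28.

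Sprr1a, a small proline-rich protein gene of stressed and squamous epithelium, read -1.60, -1.33 and -1.19 in the WT series and -1.28, -1.35 and -0.77 in the Ccr2KO series. Ccr2KO day 28 lay 0.07 below its untreated array, about the SD of repeated spots, and the other 3 silica arrays lay above theirs. The difference of 0.28 ± 0.13 did not pass (limma, adjusted p = 0.205), and blocked on slide row it was -0.01 ± 0.18. Of 17 further cornified envelope genes 5 were measured, and most small proline-rich genes were not. The crosslinking enzyme gene Tgm1 rose by 1.28 ± 0.24 (limma, adjusted p = 0.0332), involucrin Ivl fell by 0.75 ± 0.13 (adjusted p = 0.0315, above background on 4 of 6 arrays), and 3 did not pass. Neither call held without the filter on dim probes, and with normexp background correction Ivl was at -0.23 ± 0.09 (limma, adjusted p = 0.125).

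Further genes known to be raised in transitional cells were read from a list of 20. With both genotypes averaged, 7 rose, none fell and 13 did not pass (median 0.45 against -0.01 for all genes tested). The list mean was 2.60, 3.27 and 3.47 in the WT series and 3.19, 3.18 and 3.48 in the Ccr2KO series. It was thus not higher at day 28 than untreated in Ccr2KO cells. In 4 of the 20 (20%, against 8.75% of all genes) the genotypes moved in opposite directions on both silica days. Ndrg1, a stress-induced gene, rose by 1.34 ± 0.14 (limma, adjusted p = 0.0123), the hyaluronan receptor gene Cd44 by 1.28 ± 0.10 (adjusted p = 0.00885), the cystatin gene Cst6 by 1.09 ± 0.17 (adjusted p = 0.0232) and clusterin Clu by 0.98 ± 0.11 (adjusted p = 0.0143). The matrix protein gene Ccn2, the stress gene Nupr1 and the transcription factor gene Sox4 also rose, by 0.80, 0.52 and 0.56. Cd44 had 3 further probes, at 1.44, 0.77 and 0.47. Integrin Itgb6, an epithelial activator of TGF-beta, was at -0.33 ± 0.18 and the annexin genes Anxa1 and Anxa2 at 0.50 ± 0.14 and 0.37 ± 0.09, and none of them passed. The count of 7 higher fell to 3 without WT untreated, WT day 40 or Ccr2KO day 40, and to 0 without either day 28 array or blocked on slide row, and was 4 without the filter on dim probes. Ndrg1, Cd44, Clu, Ccn2 and Sox4 are known in fibroblasts, endothelium or leukocytes too. After silica 4 of 6 fibroblast markers rose, 1 fell and 1 did not pass, with a list mean of 4.60 and 4.67 untreated and 5.20 to 5.88 after silica, and the part of these cells was not tested.

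Between day 28 and day 40 no listed gene passed (limma, 2.73% of all genes were called, 0.201% higher and 2.53% lower, and 16.1% lay at unadjusted p below 0.05). Of the 10 genes, 8 were higher at day 40 than at day 28 in both genotypes, against 47.6% of all genes. On the pan-epithelial scale 5 of 10 were (Krt8, Krt18, Cldn4, Sfn and Hbegf), against 14.2% of all genes. Of these, Krt8 moved on that scale only from 2.37 to 2.40 in WT and from 2.43 to 2.44 in Ccr2KO cells. Krt18 moved from 4.73 to 4.78 in WT cells. Such steps are no larger than about the SD of repeated spots. Hbegf (0.95 ± 0.15, adjusted p = 0.0741) and Cldn4 (0.82 ± 0.11, adjusted p = 0.0562) had the largest differences, and each reached adjusted p below 0.05 under 3 of the alternative settings. Krt18 was 0.42 ± 0.11 higher at day 40, Sfn 0.39 ± 0.13 and Sprr1a 0.36 ± 0.15, and at unadjusted p Krt18 (0.0165) and Sfn (0.037) lay below 0.05. Lgals3, at -0.59 ± 0.41, and Krt7, at 0.03 ± 0.16, were the 2 genes without a shared direction. Pan-leukocyte genes fell over the same interval, with 10 of 11 called and a mean of 4.19 and 3.73 at day 28 and 1.91 and 1.47 at day 40. Endothelial markers, of a cell type known to make Hbegf, had a mean of 3.49 and 3.59 at day 28 and 4.27 and 3.84 at day 40. The part of either cell type in these differences was not tested. On the pan-epithelial scale the differences were 0.74 ± 0.16 for Hbegf, 0.60 ± 0.16 for Cldn4 and 0.02 ± 0.15 for Krt8.

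Between genotypes no gene of the array passed (limma, 0 of 16422 called, 0%, with 1525 or 9.29% at unadjusted p below 0.05). Cldn4 had the largest difference of the 10, at 0.77 ± 0.09 (Ccr2KO minus WT, unadjusted p = 0.000924, limma adjusted p = 0.381). It was higher in Ccr2KO cells by 0.84 untreated, 0.66 at day 28 and 0.80 at day 40, and by 1.17, 0.63 and 1.13 with the second probe. The untreated arrays thus differed as much as the silica arrays did. Krt18 and Krt19 were also higher in Ccr2KO cells on all 3 days, by 0.14, 0.08 and 0.19 and by 0.04, 0.25 and 0.29, which is 3 of 10 genes with Cldn4 against 19.6% of all genes. The other genotype differences lay between -0.21 ± 0.12 (Areg) and 0.24 ± 0.13 (Sprr1a), and adjusted p of the 10 lay between 0.381 and 0.919.

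The silica responses of the 2 genotypes were compared in a model of genotype by silica. It took days 28 and 40 as 2 arrays of the same silica group, so a change between these days counts as error. Cldn4 and Hbegf, which differed most between the days, had errors of 0.75 and 0.88. None of the 10 genes passed, nor did any gene of the array (limma, 0%, with 619 or 3.77% at unadjusted p below 0.05). Estimates for the 10 lay between -0.37 ± 0.25 (Krt7) and 0.82 ± 0.80 (Lgals3), and their errors of 0.25 to 0.88 leave differences of that size undetected. Krt7 lay 0.95 and 1.06 below untreated in Ccr2KO cells (days 28 and 40) and 0.72 and 0.55 below it in WT cells, a difference that did not pass (unadjusted p = 0.205).

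The mean of the 10 genes, each centred over the 6 arrays, was -0.09, -0.22 and 0.03 in the WT series. In the Ccr2KO series it was 0.09, -0.09 and 0.29, so it was lowest at day 28 and highest at day 40 in each genotype. The genes were not scaled to a common range, so Cldn4, with the widest range (2.41), weighs most in this mean. Cldn4, Sfn and Sprr1a were highest at day 40 in each genotype, while Krt18, Krt19, Krt7 and Areg were highest untreated. The similar genes thus follow a mean that many of the 10 do not share. Among 3575 genes above background on all arrays with a range of at least 1, those with the most similar pattern were Hoxa7 (Pearson r = 0.99 over 6 arrays), Hcrt (0.974), Tmprss13 (0.972), Edn2 (0.958), Vegfb (0.957), Iigp1 (0.949), Aadacl4fm4 (0.947) and Calml3 (0.946). Tmprss13, an epithelial membrane protease gene, read -1.92, -2.20 and -1.86 in the WT series and -1.71, -2.02 and -1.14 in the Ccr2KO series. Those most like Krt8 alone were Nudt12 (0.974), the interferon-induced GTPase gene Irgm1 (0.96), the mucin gene Muc13 (0.953) and the adhesion molecule gene Icam1 (0.948). Icam1 read 2.92, 2.41 and 3.06 in the WT series and 3.59, 2.55 and 2.74 in the Ccr2KO series, and like Krt8 it was highest in untreated Ccr2KO cells and lowest at day 28. With 6 arrays and so many genes such high values are a ranking only, and all points share the same arrays.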

How the data were processed

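Per the file headers, Agilent Feature Extraction 11.0.1.1 gave the deposited processed intensity of each spot, on Cy3 arrays of design 028005. A second table deposited by the authors holds log2 of it for 30574 probes, unscaled between arrays (largest difference from the scanner values 5e-09, probes spotted once), and the submitters' processing notes name R 2.15.1. Control spots and outlier flags (109 to 195 on an array) were left out, spots of a probe averaged, and the 75th percentile of the array taken off log2 intensity. The 75th percentile signal was 792.9 to 1179 units, and 58.2 to 64.3% of probes were well above background. The number of arrays limits the precision. Probes stayed in if 2 or more of the 6 arrays had them well above background, and were named through RefSeq (GRCm38.p6 gene set, 27509 of 55681 probes with 1 symbol) with the brightest probe standing for its gene. No position of a probe is given, as its annotation used another build.

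Tests used limma 3.58.1 in R 4.3.3, after a run on simulated data: an additive fit of day and genotype (prior degrees of freedom 2.22) and a fit of genotype by silica (1.87). The listed genes, gene lists, tests and settings were chosen with earlier results of these data known. The text names the 10 genes, up to 4 called genes of each list or the 2 largest by value, genes that bear on cell make-up, and the genes most similar in pattern. Other list members given with values, and the arrays held at background level, were chosen after values were seen. Marker lists of club, ciliated, mast cell and T cell genes are given in the closing section. The alternatives were normexp (offset 50) (on median spot signals, as the files hold no mean signal), quantile normalization, the authors' deposited log2 table, 2 other filters, averaged probes, a robust prior with intensity trend, a block on slide row, a pan-epithelial scaling, and leaving out each array.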

Additional observations from a re-analysis of the deposited data

Results flagged for a closer look

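Among the genes of the lists set beside the 10, 14 of 88 lay above untreated on both silica arrays of one genotype and below it on both of the other, as did 8.75% of all genes and none of the 10. The value given is the silica response of Ccr2KO cells minus that of WT cells, from the fit of genotype by silica, in which none passed (limma, adjusted p = 1.0 for each). Of 13 p53 target genes 8 were among them, all higher after silica in WT and lower in Ccr2KO cells: Cdkn1a (-2.03 ± 0.23), Mdm2 (-0.60 ± 0.21), Ccng1 (-1.17 ± 0.23), Trp53inp1 (-0.49 ± 0.28), Phlda3 (-1.64 ± 0.23), Eda2r (-3.56 ± 0.54), Sesn2 (-0.96 ± 0.35) and Aen (-1.38 ± 0.25). Eda2r was not well above background on the WT untreated and WT day 40 arrays, and with the first held at its lowest signal well above background its difference was -1.55. Cdkn1a, a cell cycle inhibitor gene raised in transitional cells, read 2.99 in WT and 4.57 in Ccr2KO untreated cells, and 3.56 to 4.10 on the silica arrays. All 8 genes were higher in Ccr2KO than in WT untreated cells. Phlda3 read 4.02 and 5.60 there and 5.34 to 5.51 on the silica arrays, and Aen 2.87 and 4.12 there and 3.84 to 4.11 on the silica arrays. Every response is set against the single untreated array of its genotype, so the 8 are not separate observations.

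Gdf15, a stress cytokine gene, had a difference of -3.86 ± 0.40 and the receptor gene Tnfrsf12a one of -1.03 ± 0.49, both higher after silica in WT and lower in Ccr2KO cells. Gdf15 read 1.90 in WT and 4.98 in Ccr2KO untreated cells, and 3.32 to 4.44 on the silica arrays. Smaller ones were in Rhbdf2 (-0.41), Ywhaz (-0.27), Cldn8 (0.58) and Cldn22 (0.54), with SE of 0.26 to 0.50.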

How the results depend on the processing

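No paired analysis was possible because the labels number no replicates and each group had 1 array. For silica minus untreated, all 10 genes kept their direction except Krt8 under the pan-epithelial scaling (0.01) and Sprr1a with the row block (-0.01). The count of listed genes called higher (1) was 2 under the pan-epithelial scaling and 0 with the row block, and 0 to 2 when single arrays were left out. The count called lower (2) was 1 under the pan-epithelial scaling, 0 without a filter and 0 with the row block, and 0 to 1 without single arrays. All genes called (3257) were 1877 without a filter, 0 with the row block, and 0 to 1948 without single arrays. These fits test more genes, or have 1 residual degree of freedom.

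For day 40 minus day 28 the listed genes called higher (0) were 2 with normexp, 2 above background on all 6 arrays, 1 in the authors' table and 1 with the intensity trend. All genes called (449) were 705 with normexp, 233 without a filter, 682 with the trend, 690 under the pan-epithelial scaling, 0 with the row block and 0 to 689 without single arrays. Krt7 (0.03) was -0.02 with quantile normalization and in the authors' table, -0.19 under the pan-epithelial scaling and -0.17 to 0.23 without single arrays, and Lgals3 -1.28 to 0.10. For Ccr2KO minus WT 1 gene was called with normexp, 1 above background on all 6 arrays and 1 with the trend. Without single arrays Lgals3 was -0.24 to 0.50 and Hbegf -0.05 to 0.17.

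The difference of the silica responses, never called, changed sign as follows. With the row block it was 0.23 for Krt18, 0.33 for Cldn4, 0.03 for Sfn, 0.12 for Hbegf and 0.17 for Sprr1a. Without single arrays it was -0.24 to 0.23 for Krt18, -0.55 to 0.33 for Cldn4, -0.36 to 0.17 for Sfn, -0.02 to 0.44 for Areg, -0.83 to 0.27 for Hbegf and -0.41 to 0.17 for Sprr1a. Krt18 was 0.10 with quantile normalization, 0.05 in the authors' table and 0.03 under the pan-epithelial scaling, and Cldn4 0.09 with normexp. Without an untreated array it could not be fitted. Of other genes, silica minus untreated without single arrays was -1.17 to 0.17 for Erbb3, -0.51 to 3.05 for Eda2r and -0.18 to 1.45 for Phlda3, and with the row block -0.70 for Eda2r and -0.02 for Phlda3. Where no construction is named, the cause was not tested.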

Other observations

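Mast cell and T cell genes, which mark cells known to make Areg, were read in the same cells. Of 5 mast cell and basophil genes 4 rose and 1 did not pass after silica, with a mean of -2.53 and -2.60 untreated and -1.22 to 0.90 after silica. Cpa3, a mast cell protease gene, read -2.76, -0.41 and -0.86 in the WT series and -2.26, 1.67 and 1.04 in the Ccr2KO series. Of 7 T cell and group 2 innate lymphoid genes 5 rose and 2 did not pass, with a mean of -2.15 and -2.03 untreated, -0.71 and -0.30 at day 28 and -1.85 and -1.69 at day 40. Il5, among the 5, was above background on no untreated and 2 silica arrays, so it entered through the group where it is high. Cd3e and Cd3g were called lower at day 40 than at day 28. Il1rl1, which encodes the IL-33 receptor of mast cells and group 2 lymphoid cells, rose by 1.90 ± 0.26 (limma, adjusted p = 0.0182), while Areg itself was not called.

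Airway markers moved little as lists. Of 4 measured club cell genes 1 rose, the secretory gene Scgb3a1 (0.95 ± 0.21, limma, adjusted p = 0.0483), and none of 6 ciliated genes passed (median -0.12).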
